A study of Xenopus laevis with 8 samples.

Results

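The genes described here make, break down and bind retinoic acid, a small lipid hormone made from vitamin A. They are the .L and .S copies of aldh1a2, cyp26a1, cyp26c1 and crabp2 in Xenopus laevis, a frog with a duplicated genome in which most genes have a copy on a chromosome of each ancestral set. Here the long (.L) and short (.S) copy mean the copy on the long or short chromosome of a pair, not the length of the gene. The copies were chosen by symbol, without the final .L or .S, which gave 8 of the 45035 genes in the count table. All 8 passed the filter on low counts that left 23130 genes for testing. The copies of cyp26c1 passed only through the groups in which they were high: no control or Pinhead library held more than 4 counts of cyp26c1.L, and no control library more than 3 of cyp26c1.S. These copies therefore had to differ from the groups that lack them.

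Retinoic acid sets head-to-tail position in the vertebrate embryo. Aldh1a2 (retinaldehyde dehydrogenase) oxidises retinaldehyde to retinoic acid and is the main synthesising enzyme of the early trunk mesoderm. The Cyp26 enzymes are cytochromes P450 that hydroxylate retinoic acid to products for removal and keep the head, parts of the hindbrain and the tail tip low in it, while Crabp2 binds retinoic acid in the cell and hands it to nuclear receptors. Together these proteins make zones of high and low retinoic acid along the neural plate.

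The libraries came from wild-type ectodermal explants, pieces of embryonic ectoderm cultured in salt solution to the early neurula stage. They form 4 groups of 2. Libraries 1 and 2 are controls, 3 and 4 expressed Chordin, 5 and 6 expressed a Flag-tagged Pinhead, and 7 and 8 expressed both proteins, with no tag named on the label. Chordin binds and blocks BMP ligands outside the cell, and Pinhead is another secreted protein of the embryo. The labels give neither the way the proteins were supplied, nor what controls received, nor whether 2 libraries of the same group represent separate embryos. The p-values therefore judge group differences only against the spread between these libraries. That spread may be technical, so the p-values may not extend to other embryos. Transcripts of the expressed genes were high where the labels put them, with chrd.S at a mean of 805 CPM (counts relative to the scaled size of the library) in Chordin explants and 863 CPM in explants with both, and pnhd.L at 996 CPM with Pinhead and 458 CPM with both. Neither gene exceeded 2.89 CPM in any other library. Libraries held 15052017 to 19677493 counts, and 1 CPM stood for 14.5 to 19 counts.

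Every copy was higher with both proteins than in control, and the single proteins divided the family. Genes were called changed at a Benjamini-Hochberg adjusted p under 0.05 in edgeR's quasi-likelihood test. The ± after a log2 fold change is an approximate standard error, the size of the change divided by the square root of the F statistic. It can be too narrow where a group holds few counts. With Chordin 7 of the 8 copies rose over control and none fell, beside 31.7% of all tested genes that rose and 32% that fell. With Pinhead 5 rose and none fell, both cyp26a1 and both crabp2 copies and cyp26c1.S, beside 6.75% and 3.92% of all genes. With both proteins all 8 rose, beside 33.3% and 32.1%. The 3 comparisons share the control libraries. The risers with Chordin and with both include the cyp26c1 copies, and those with Pinhead include cyp26c1.S. These passed the filter through the groups where they were high, so their rise over control is no independent support. Every copy of aldh1a2, cyp26a1 and crabp2 also rose with both, and all of them except cyp26a1.L rose with Chordin.

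Against the single proteins, the copies went in both directions. Explants with both differed from Chordin explants in 5 copies that were higher and in aldh1a2.L, which was lower, where 6.46% of all genes were higher and 4.25% lower. They differed from Pinhead explants in 6 higher copies and in both cyp26a1 copies, which were lower, beside 30.7% and 31%. Pinhead explants had more of both cyp26a1 copies and crabp2.S than Chordin explants and less of the other 5 copies, beside 31.2% and 29.5%. The interaction of the proteins, the difference on the log2 scale between the change that goes with Chordin when Pinhead is present and when it is absent, was called negative for 4 copies and positive for crabp2.S, beside 5.72% and 5.24% of all genes. The 4 negative interactions include cyp26c1.S, hardly detected in control. The counts that involve Pinhead explants include cyp26c1.L, hardly detected there. The all-gene percentages for Pinhead against control, both against Chordin and the interaction rest on single libraries: 1562 genes rose with Pinhead, but 471, 491, 965, 967, 722, 2576 and 2577 did so without library 1, 2, 3, 4, 5, 7 and 8. The count of these copies called with Pinhead was 5 in each of the 14 alternative analyses that gave one.

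**Figure D1:**
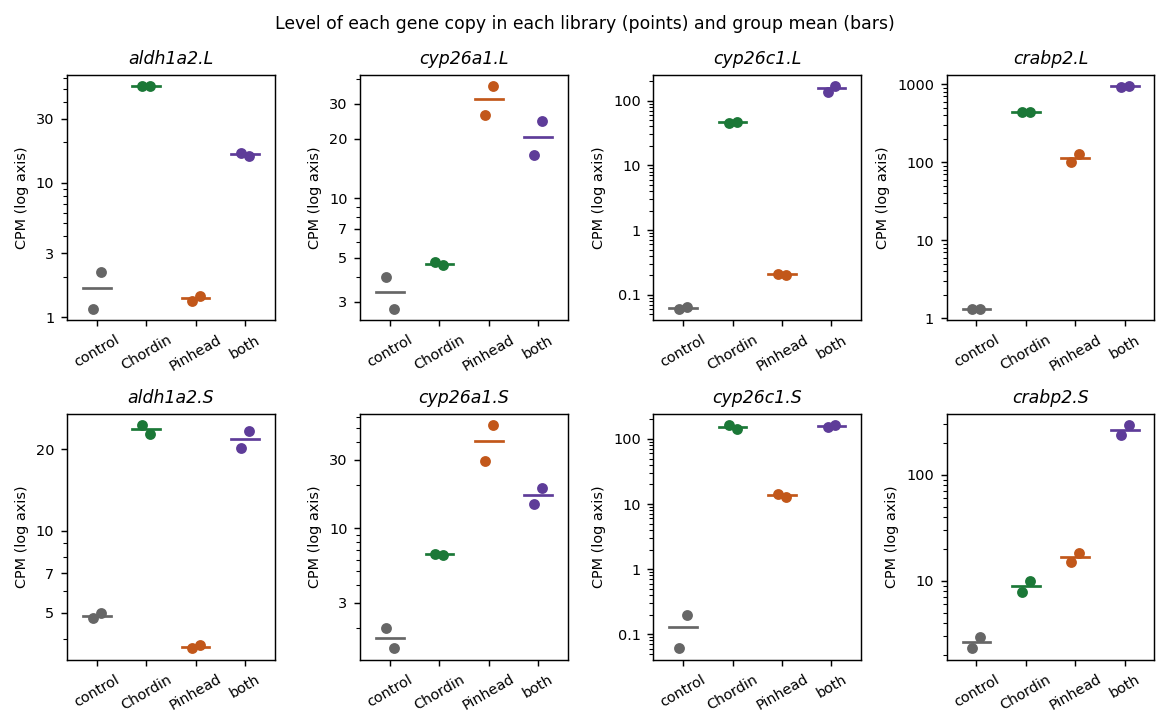
Level of each of the 8 gene copies in CPM on log axes, 1 point per library and a bar at the mean of the 2 libraries of a group. Points of aldh1a2 are high in the groups with Chordin, those of cyp26a1 in the groups with Pinhead, and those of crabp2.S stand far higher with both proteins (240 and 295 CPM) than with either alone.

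The synthesis gene aldh1a2 was raised by Chordin and not by Pinhead. The long copy stood at 1.15 and 2.17 CPM in the control libraries, 52.8 CPM in each Chordin library, 1.32 and 1.44 CPM with Pinhead and, with both, 16.7 and 15.9 CPM. Its order was Chordin, then both, then control and Pinhead, whose libraries overlapped. Chordin raised aldh1a2.L 32.1-fold (log2 fold change 5.003 ± 0.202, adjusted p = 1.12e-07), and both proteins raised it 9.89-fold (3.31 ± 0.21, adjusted p = 1.73e-06). These are bulk RNA samples, in which a change in the number of cells of a type and a change in RNA per cell cannot be told apart.

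Adding Pinhead to Chordin lowered the long copy of aldh1a2 3.24-fold, a log2 fold change of -1.70 ± 0.15 (adjusted p = 0.000231), while Pinhead without Chordin gave -0.25 ± 0.30 (adjusted p = 0.642). The interaction of -1.44 ± 0.34 was called (adjusted p = 0.0279), and the call was lost without library 1, 3, 4, 5 or 6 (adjusted p = 0.0783, 0.0952, 0.104, 0.0903 and 0.0755) and with the first run column alone (-1.06, adjusted p = 0.227). The fall from Chordin to both was called in every alternative analysis run.

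The short copy of aldh1a2 also rose with Chordin, without the fall in explants with both. It had 4.77 and 4.99 CPM in control, 24.6 and 22.8 CPM with Chordin, 3.69 and 3.78 CPM with Pinhead and, with both, 20.2 and 23.4 CPM. The 4 libraries with Chordin stood together above the 4 without it, and the Chordin libraries overlapped those with both. Chordin raised aldh1a2.S 4.86-fold (2.28 ± 0.14, adjusted p = 1.32e-06). Both against Chordin gave -0.12 ± 0.12 (adjusted p = 0.624), and Pinhead against control gave -0.38 ± 0.17 (adjusted p = 0.177) although the libraries of those groups did not overlap.

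Of the genes for retinoic acid breakdown, cyp26a1 was highest with Pinhead. The long copy had 3.98 and 2.76 CPM in control, 4.76 and 4.59 CPM with Chordin, 26.4 and 37 CPM with Pinhead and, with both, 16.4 and 24.5 CPM. All 4 libraries with Pinhead stood above the 4 without it. Pinhead raised cyp26a1.L 9.32-fold (3.22 ± 0.27, adjusted p = 0.000166), and adding Pinhead to Chordin raised it 4.38-fold (2.13 ± 0.26, adjusted p = 0.00108). Chordin alone gave 0.46 ± 0.30 (adjusted p = 0.206), which was called when the first run column of each library was used alone (0.98, adjusted p = 0.0307) or the copies were summed. The second run column alone gave the other sign (-0.054, adjusted p = 0.907), and the summed value includes the short copy.

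The short copy of cyp26a1 had the same order of groups, and here every step was called. It stood at 1.99 and 1.44 CPM in control, 6.64 and 6.50 CPM with Chordin, 29.3 and 52.6 CPM with Pinhead and, with both, 14.8 and 19.2 CPM, with no overlap between any of the groups. Pinhead raised cyp26a1.S 23.5-fold (4.56 ± 0.33, adjusted p = 8.57e-05) and Chordin 3.79-fold (1.92 ± 0.37, adjusted p = 0.0015). Both against Chordin gave 1.37 ± 0.28 (adjusted p = 0.014), a call lost without Chordin library 3 or 4 (adjusted p = 0.13 and 0.142).

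Levels of cyp26a1 with both proteins were below those with Pinhead alone. The short copy was 2.39-fold lower (-1.26 ± 0.25, adjusted p = 0.00194), and its interaction was -3.18 ± 0.45 (adjusted p = 0.00372). The long copy was 1.54-fold lower (-0.62 ± 0.22, adjusted p = 0.034), a call lost without library 3, 4, 6 or 7 (adjusted p = 0.0571, 0.0572, 0.249 and 0.0883) and in a fit of the compared groups alone (adjusted p = 0.0753). Its interaction of -1.09 ± 0.38 was not called (adjusted p = 0.0936), though it was without library 8 (-1.41, adjusted p = 0.00358), without the count filter, with the first run column alone and with summed copies. The expressed pnhd.L was itself lower in explants with both (log2 fold change -1.12 ± 0.26), and its part in the lower cyp26a1 was not tested.

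The other breakdown gene, cyp26c1, was scarcely detected in control and abundant with Chordin. The short copy, which passed the count filter through the other 3 groups, had 1 and 3 counts in the control libraries, or 0.0603 and 0.197 CPM. It reached 164 and 142 CPM with Chordin, 14.2 and 12.9 CPM with Pinhead and, with both, 153 and 162 CPM. The order was both and Chordin, whose libraries overlapped, then Pinhead, then control. Chordin raised cyp26c1.S by 10.16 ± 0.23 on the log2 scale (adjusted p = 8.81e-09) and Pinhead raised it by 6.67 ± 0.28 (adjusted p = 6.77e-06). Those sizes depend on the few control counts: without control library 1 they were 9.56 and 6.06, and without library 2 they were 11.14 and 7.65. The ± values do not cover this. The calls against control are no independent support, since the copy passed the filter through the other groups.

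Adding Pinhead to Chordin left the short copy of cyp26c1 at a log2 difference of 0.04 ± 0.11 (adjusted p = 0.864), and its interaction was -6.63 ± 0.32 (adjusted p = 2.7e-05, or -6.02 and -7.61 without library 1 or 2). The long copy differed here. It had 1 count in each control library and 4 and 3 counts with Pinhead, against 45.5 and 47.3 CPM with Chordin. In explants with both it had 138 and 170 CPM. The level of cyp26c1.L with both was 3.31-fold that with Chordin (1.73 ± 0.11, adjusted p = 5.24e-05).

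Against control, the long copy of cyp26c1 allows only a ratio with a 95% counting interval, since the control group held 2 counts. The ratio was 738 (204 to 6100) with Chordin and 2458 (680 to 20302) with both. With Pinhead it was 3.32 (0.633 to 32.8), so a change was not detectable at this depth. The Pinhead libraries had 273 and 191 counts of the 2 copies together, of which 4 and 3 were from the long copy.

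The binding protein gene crabp2 rose in all 3 groups over control, with the 2 copies in different orders. The long copy went from 1.33 and 1.31 CPM in control to 443 and 449 CPM with Chordin, 100.4 and 129.6 CPM with Pinhead and, with both, 921 and 961 CPM. No groups overlapped. Chordin raised crabp2.L 336-fold (8.39 ± 0.17, adjusted p = 7.21e-09), Pinhead 86.6-fold (6.44 ± 0.17, adjusted p = 4.09e-07) and both 709-fold (9.47 ± 0.18, adjusted p = 4.18e-09). Its level with both was 2.11-fold that with Chordin (1.08 ± 0.11, adjusted p = 0.000547), and its interaction was -5.36 ± 0.20 (adjusted p = 6.25e-06).

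The short copy of crabp2 was mainly a transcript of explants with both proteins. It had 2.29 and 2.95 CPM in control, 7.75 and 9.89 CPM with Chordin, 14.9 and 18.4 CPM with Pinhead and, with both, 240 and 295 CPM. The groups did not overlap, and Pinhead explants stood above Chordin explants, the reverse of the long copy. Chordin raised crabp2.S 3.37-fold (1.75 ± 0.22, adjusted p = 0.000101) and Pinhead 6.34-fold (2.66 ± 0.21, adjusted p = 0.000121). Explants with both had 30.3-fold more than Chordin explants (4.92 ± 0.18, adjusted p = 8.78e-06). The interaction was positive, at 2.26 ± 0.29 (adjusted p = 0.00233).

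**Figure D2:**
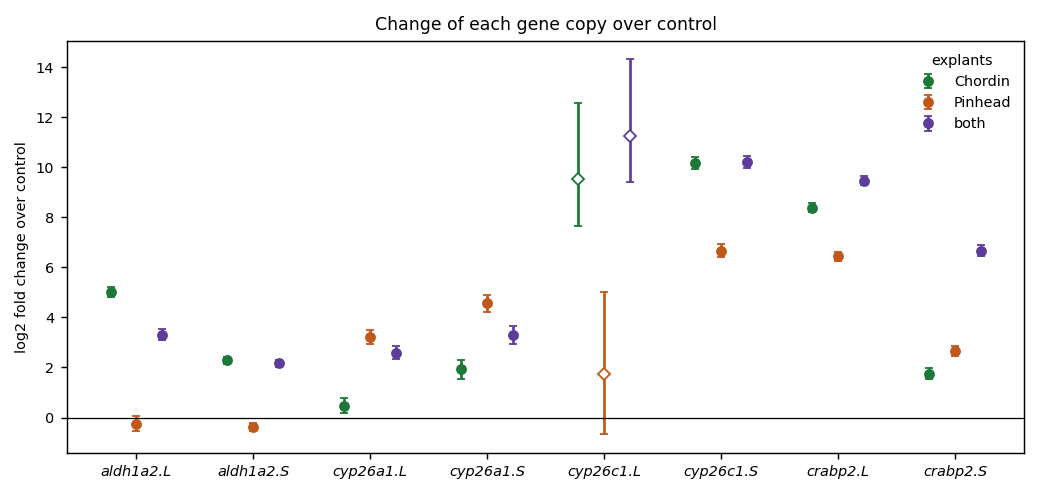
Log2 fold change over control of each gene copy with Chordin, Pinhead or both. Filled circles are fitted changes with the approximate standard error of the text, which can be too narrow where control counts are few. Open diamonds with 95% counting intervals are ratios of cyp26c1.L, whose control group held 2 counts. Changes with Pinhead lie near 0 for aldh1a2, and exceed those with Chordin for both cyp26a1 copies and crabp2.S.

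The share of the 2 copies of each gene differed between some of the groups, but not in every comparison. The long copy of aldh1a2 made up 19.4% and 30.3% of the counts of both copies in the control libraries, 68.2% and 69.8% in the Chordin libraries, 26.3% and 27.6% in the Pinhead libraries, and 45.2% and 40.4% where both were expressed. For crabp2 its share was 36.7% and 30.8% in controls, 98.3% and 97.8% under Chordin, 87.1% and 87.5% under Pinhead, and 79.3% and 76.5% under both. For cyp26c1 it was 21.7% and 25% under Chordin, 1.47% and 1.57% under Pinhead, and 47.3% and 51.2% under both. The share of the long cyp26a1 copy started at 66.7% and 65.6% in controls and was lower elsewhere, at 41.7% and 41.4% under Chordin, 47.4% and 41.3% under Pinhead, and 52.7% and 56% under both.

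Changes in the log2 difference between copies were tested with limma across 6596 pairs of long and short copies. The ± after such a difference is the moderated standard error from limma. With Chordin the long copy gained on the short one by 2.71 ± 0.29 for aldh1a2 (adjusted p = 1.87e-05) and by 6.57 ± 0.15 for crabp2 (adjusted p = 7.77e-10), and it lost ground for cyp26a1 (-1.40 ± 0.22, adjusted p = 0.00033). Such a change was called for 53.5% of all pairs with Chordin, so that a call as such is common there. With both against control, where 52.7% of pairs were called, the change was 2.74 ± 0.15 for crabp2 (adjusted p = 2.46e-07) and 1.14 ± 0.29 for aldh1a2 (adjusted p = 0.00661, lost without library 1). For cyp26a1 it was -0.67 ± 0.22 (adjusted p = 0.0259), a call lost in 4 of 9 alternatives.

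Fewer pairs of the genome changed in the comparisons that add Pinhead. Against control 8.73% of pairs were called, among them crabp2 (3.70 ± 0.15, adjusted p = 7.09e-07) and cyp26a1 (-1.25 ± 0.22, adjusted p = 0.00696, lost without library 6). The aldh1a2 pair was not called (0.19 ± 0.29, adjusted p = 0.751). Between both and Chordin 6.81% were called. There the long copy of crabp2 lost on the short one by -3.83 ± 0.15 (adjusted p = 4.86e-07) and that of aldh1a2 by -1.57 ± 0.29 (adjusted p = 0.00845), while that of cyp26c1 gained by 1.67 ± 0.28 (adjusted p = 0.00576). The aldh1a2 and cyp26c1 calls were lost without library 3 or 4. The cyp26a1 pair was not called (0.73 ± 0.22, adjusted p = 0.077). Between Pinhead and Chordin, with 49% of pairs called, the difference was -2.88 ± 0.15 for crabp2 and -2.52 ± 0.29 for aldh1a2. For cyp26a1 it was 0.15 ± 0.22 and was not called (adjusted p = 0.593). For cyp26c1 it was -3.67 ± 0.28, from -4.12 to -3.53 over the alternatives. The long cyp26c1 copy had 4 and 3 counts in the Pinhead libraries, so this value depends on the prior count, which the ± does not cover. That copy passed the count filter through the groups with Chordin, so its difference from them is no independent support. No difference against control is given here for cyp26c1, whose control libraries held 6 counts of both copies, and the alternative values given at the end rest on those counts. The way reads shared by near-identical copies were counted is not given in the sources used here, nor is strand use, so the level of a single copy is uncertain.

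**Figure D3:**
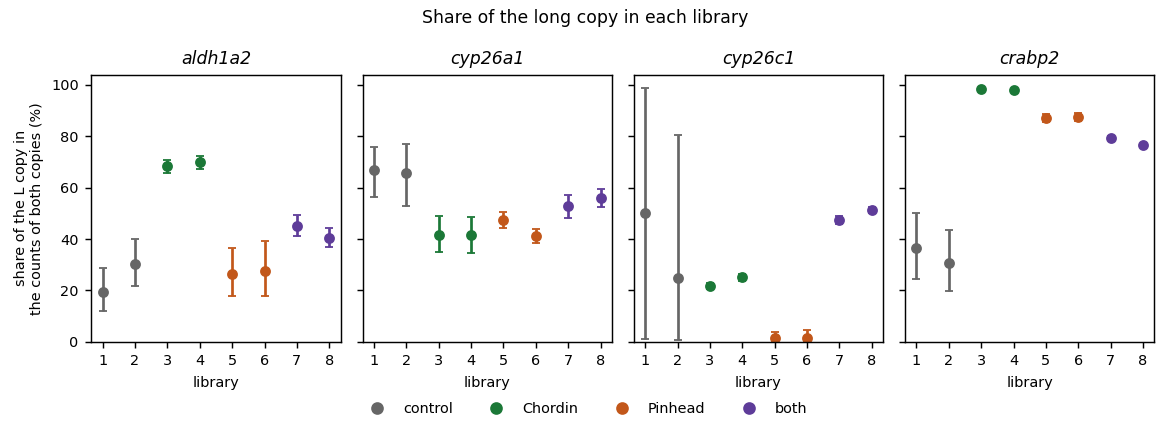
Share of the long copy in the counts of both copies (%) for each gene in libraries 1 to 8, with exact 95% binomial intervals that cover counting error only. The share of crabp2 lies at 97.8% or more with Chordin and at 36.7% or less in control, and that of cyp26c1 is 1.47% and 1.57% with Pinhead.

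When the 2 copies were summed, each gene gave 1 pattern. Summed aldh1a2 rose by 3.54 ± 0.12 with Chordin (adjusted p = 1.16e-07) and was lower with both than with Chordin by -1.01 ± 0.10 (adjusted p = 0.000702). Summed cyp26a1 rose with each protein, by 1.13 ± 0.30 with Chordin and 3.83 ± 0.29 with Pinhead (adjusted p = 0.00963 and 0.000193). Summed cyp26c1 and crabp2 were higher with both than with Chordin by 0.64 ± 0.11 and 1.41 ± 0.12 (adjusted p = 0.00708 and 0.000314). All 4 summed genes had a negative interaction, from -0.66 ± 0.17 for aldh1a2 to -5.50 ± 0.29 for cyp26c1 (adjusted p = 0.0428 and 6.91e-05). Summed cyp26c1 had only 2 and 4 counts in the control libraries and passed the filter through the other groups. Its interaction rests on those counts, which the ± does not cover, and is no independent support.

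The 2 breakdown genes are next to each other in the genome. In the RefSeq gene order of the assembly Xenopus_laevis_v10.1, cyp26c1 directly follows cyp26a1 on both the long and the short chromosome. Their levels were in different orders over the groups. After each gene was centred on its own mean, the root-mean-square difference in log2 CPM over the 8 libraries was 3.15 between cyp26a1.S and cyp26c1.S, a value that depends on the prior count of 2 through the control libraries, where cyp26c1.S had 1 and 3 counts. The value of the long pair is left out, since cyp26c1.L had 4 counts or fewer in 4 libraries. Between the cyp26a1 copies it was 0.56.

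Among other neighbours, hhex is the second gene beyond cyp26c1 on both chromosomes, and hhex.L, a homeobox gene of liver and anterior endoderm, was highest in control. It had 19.7 and 22.9 CPM there, 0 and 0.166 CPM with Chordin, 2.06 and 5.44 CPM with Pinhead and, with both, 0 and 1.06 CPM. It was low where cyp26c1.L was high. With Pinhead, where cyp26c1.L was hardly detected, hhex.L was also lower than control (-2.55 ± 0.54, adjusted p = 0.0181). This call was lost without library 1, 2, 3, 4 or 5. The short copy hhex.S had means of 0.819, 0.331, 0.269 and 0.386 CPM in control, Chordin, Pinhead and both. The gene directly after cyp26c1.L, exoc6.L, was instead higher than control with Chordin (1.66 ± 0.37, adjusted p = 0.00327) and with both (2.50 ± 0.35, adjusted p = 0.000203). Its means were 0.698, 2.2, 0.713 and 3.96 CPM in control, Chordin, Pinhead and both. The gene after crabp2.L other than a tRNA is nes.L, for the neural progenitor filament protein nestin. It had 0.483 and 0.984 CPM in control, rising to 87.6 and 90.7 CPM under Chordin, with 1.48 and 1.58 CPM with Pinhead and, with both, 157 and 187 CPM. On the other side isg20l2.L ranged only from 56.2 to 87.3 CPM over the 8 libraries.

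By the same root-mean-square measure, over 8 libraries and 12849 candidate genes with the 8 copies themselves left out, the closest genes were as follows. Those of aldh1a2.L were mef2c.L (0.30), the cement gland gene agr2.L (0.39) and etv2.L (0.40). Those of aldh1a2.S were metrnl.L (0.08), nf2.L (0.12) and a2m.S (0.12). The cyp26a1 copies shared the zinc finger gene sall1.S (0.54 to the long copy, 0.39 to the short one), with mef2d.S (0.43) closest to the long copy and the Wnt feedback gene axin2.L (0.53) second for the short one. The closest to cyp26c1.L were the BMP receptor gene bmpr1b.L (0.50), nr2f2.L (0.56) and lrp2.L (0.56). The purine enzyme gene pnp.L was first for both crabp2.L (0.50) and cyp26c1.S (1.02). Closer to cyp26c1.S than pnp.L was crabp2.L itself (0.61). Values for the cyp26c1 copies depend on the prior count where they have few counts. The neural crest and dorsal neural tube gene pax3.L was first for crabp2.S (0.57). This value depends on the prior count too, since pax3.L had 1 count over the control group. Of the other close genes, bmpr1b.L had no counts in control and 2 with Pinhead. The root-mean-square differences are descriptions, and no test was made on them.

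The enzymes and carriers that supply retinoids were compared next, as a list of 36 gene copies of which 16 passed the filter. With Chordin 6 rose (3 without library 2) and 6 fell, where 31.7% and 32% of all genes did, with a median log2 fold change of -0.08 beside 0 for all genes. These shares are near the background. With both against Chordin 4 rose and none fell, beside 6.46% and 4.25% of all genes (median 0.55, all genes 0.01). The reductase Dhrs3 turns retinaldehyde back to retinol and so opposes the step before Aldh1a2. Its long copy dhrs3.L stood at 20 CPM in both control libraries, 1.83 and 1.75 CPM with Chordin, 28.5 and 25.7 CPM with Pinhead and, with both, 6.17 and 5.03 CPM. Chordin lowered it by a log2 fold change of -3.48 ± 0.17 (adjusted p = 3.19e-07), and adding Pinhead to Chordin raised it by 1.64 ± 0.19 (adjusted p = 0.000843), which in both steps is the reverse of aldh1a2.L. The short copy dhrs3.S fell with Chordin too (-4.19 ± 0.26, adjusted p = 1.2e-06), but both against Chordin was not called (0.93 ± 0.32, adjusted p = 0.107). With Pinhead it lay below control, at 11.3 and 11.4 CPM against 18.9 and 17.5 CPM, which was not called either (-0.68 ± 0.19, adjusted p = 0.0554).

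The acyltransferase Lrat stores retinol as ester. Its copy lrat.L had 7.66 and 7.55 CPM in control, 2.38 and 2.08 CPM with Chordin, 19.1 and 18.1 CPM with Pinhead and, with both, 8.29 and 8.95 CPM, and it was raised by Pinhead (1.29 ± 0.14, adjusted p = 0.000824) and lowered by Chordin (-1.77 ± 0.17, adjusted p = 1.99e-05). The copy lrat.S had no counts in control and 13.9 and 14 CPM with both, at least 148-fold higher against 3 counts over the control group. The retinol dehydrogenase Rdh10 makes retinaldehyde. Its copies went opposite ways with Chordin: rdh10.S fell from 113 and 100.3 CPM to 46.9 and 44 CPM (-1.23 ± 0.21, adjusted p = 0.000632), and rdh10.L rose from 14.2 and 11 CPM to 20.9 and 22.5 CPM (0.78 ± 0.21, adjusted p = 0.00843, lost without library 2).

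Related enzymes and binding proteins were hardly detected. The breakdown gene cyp26b1 and the binding protein gene crabp1 had at most 10 counts over any group in any copy, and none was tested. The aldh1a1 copies had 2 to 7 counts in a group except for aldh1a1.L with Pinhead, which had none, and aldh1a3.S had 14 counts with both and at most 2 in another group.

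The receptor and cofactor list held 18 copies, of which 17 passed the filter. With Chordin 10 fell and 2 rose (0 without library 1, 2 or 3), beside 32% and 31.7% of all genes, with a median log2 fold change of -0.46 (all genes 0). The coactivator copy ncoa2.L went from 116 and 120 CPM in control to 32.7 and 31.9 CPM with Chordin (-1.87 ± 0.12, adjusted p = 1.83e-06), and rxra.L, a partner of all retinoic acid receptors, from 12.1 and 13.8 CPM to 3.16 and 2.79 CPM (-2.12 ± 0.24, adjusted p = 5.53e-05). The receptor copy rara.S had 63.5 and 57.4 CPM in control, falling to 39.2 and 41.8 CPM under Chordin. It had 95.7 and 107 CPM under Pinhead, but 38.3 and 37 CPM when both were expressed. It was raised by Pinhead (0.75 ± 0.10, adjusted p = 0.00238) and lowered by Chordin (-0.58 ± 0.10, adjusted p = 0.000875). The long copy rara.L had means of 3.98, 3.02, 5.44 and 4.35 CPM in control, Chordin, Pinhead and both. No group was called different from control for rara.L.

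The table names further receptor genes rarg-like, which the list did not hold and which were chosen after their values were seen. The copies of rarg-like.1 fell with Chordin, by -2.30 ± 0.18 and -1.57 ± 0.18 (adjusted p = 4.62e-06 and 6.47e-05), and were higher with both than with Chordin, by 1.74 ± 0.17 and 1.95 ± 0.18 (adjusted p = 0.000455 and 0.000315). In contrast rarg-like.2.L rose with Chordin from 55.5 and 48.7 CPM to 117 and 118 CPM (1.17 ± 0.12, adjusted p = 2.8e-05).

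**Figure D4:**
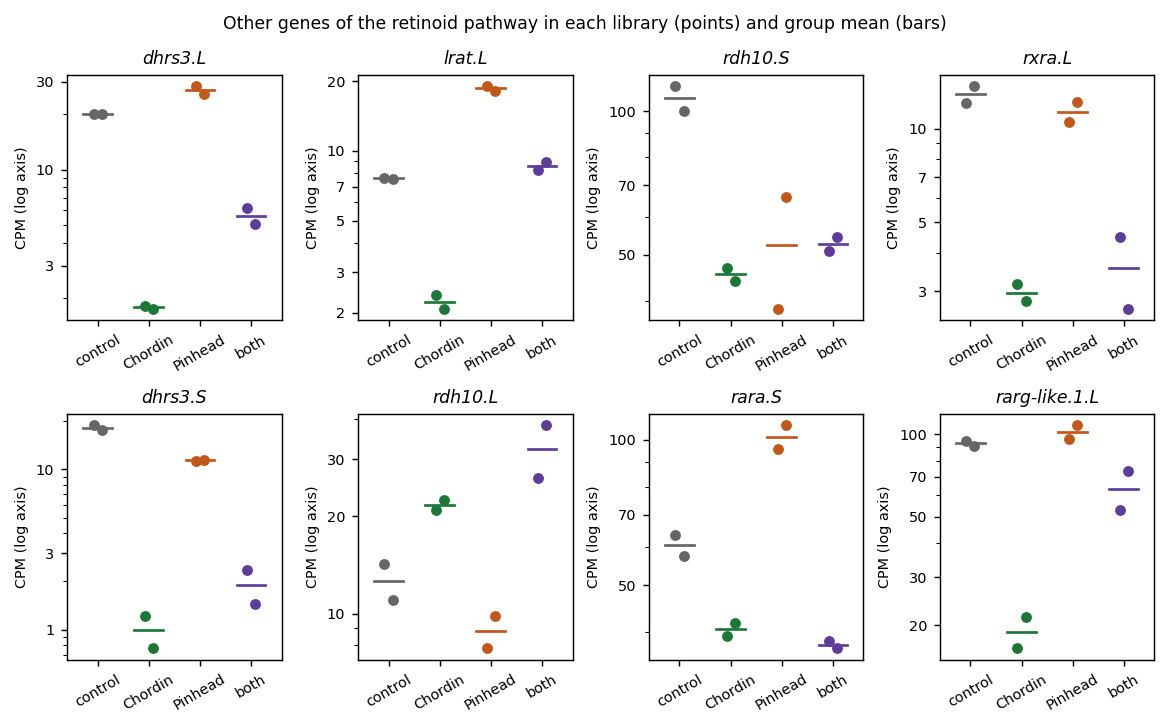
Level in CPM on log axes of 8 other genes of the retinoid pathway, 1 point per library and a bar at the group mean. The dhrs3 copies, rxra.L and rarg-like.1.L have their lowest means with Chordin, where only rxra.L overlaps explants with both. Levels of lrat.L and rara.S are highest with Pinhead.

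Genes known to respond to retinoic acid were taken as a list of 45 copies, of which 33 were tested. With Chordin 15 fell and 9 rose, beside 32% and 31.7% of all genes, so that the rising share was near the background. The median log2 fold change was -2.31, or -1.06 with genes of 3 or fewer counts in a group set to their bound (all genes 0). With Pinhead 17 rose (9 without library 1 or 2) and 1 fell (0 without 1, 2 or 5; 2 without 7 or 8), with a median of 1.76, beside 6.75% and 3.92% of all genes, shares that themselves move with single libraries as given above. The hox gene hoxa3.S had 9.23 and 8.66 CPM in control, no counts with Chordin, 33.2 and 27.5 CPM with Pinhead and, with both, 2.43 and 2.57 CPM. It was raised by Pinhead (1.76 ± 0.16, adjusted p = 0.000425). The long copy hoxa3.L had means of 9.77 CPM in control and 10.7 CPM with Pinhead, and the libraries of these groups overlapped.

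The homeobox gene meis2.L had 7.18 and 8.66 CPM in control, 99.7 and 93.1 CPM with Chordin, 10.7 and 7.09 CPM with Pinhead and, with both, 36.5 and 31.3 CPM. It rose with Chordin by 3.61 ± 0.18 (adjusted p = 4.23e-07) and was lower with both than with Chordin by -1.51 ± 0.16 (adjusted p = 0.00062), the same 2 directions as aldh1a2.L. The short copy meis2.S rose with Chordin too (3.78 ± 0.31, adjusted p = 6.37e-06), but both against Chordin gave 0.02 ± 0.21 (adjusted p = 0.969). With both against Chordin 14 list genes rose (6 without library 3 or 4) and 4 fell, beside 6.46% and 4.25% of all genes. Retinoic acid itself was not measured.

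Markers of tissues that express these genes in the embryo moved with the groups. Of 16 eye field and forebrain copies all 16 rose with Chordin, where 31.7% of all genes rose, and their summed level was 39.7 to 40.1 CPM in control, 4238 to 4434 CPM with Chordin, 16.5 to 20.9 CPM with Pinhead and 3378 to 3659 CPM with both, with six6.L at 0 in control. Of 25 tested hindbrain and midbrain copies 11 rose and 7 fell with Chordin (median 2.28, or 1.12 at bounds), beside 31.7% and 32% of all genes. With both against Chordin 17 rose (10 and 11 without library 3 and 4) and 2 fell (1 without library 3 or 4), beside 6.46% and 4.25%. Their sum was 233 to 238 CPM in control, 418 to 423 CPM with Chordin, 190 to 205 CPM with Pinhead and 737 to 738 CPM with both. The hindbrain copies hoxa2.L, hoxa2.S, hoxb1.L, hoxb1.S and hoxb2.S were at 0 with Chordin, and hoxa2.L was also at 0 in the other groups. The epidermal sum of 20 copies fell from 42105 to 43014 CPM in control to 15334 to 15404 CPM with Chordin and 7980 to 12974 CPM with both, against 38296 to 41058 CPM with Pinhead, with has1.L at 0 in every group. Of 19 tested copies 16 fell and 2 rose with Chordin, beside 32% and 31.7% of all genes. The list includes the cement gland gene agr2, and agr2.L had means of 23 CPM in control and 374 CPM with Chordin. Neural plate markers rose with Chordin in 13 of 14 copies, from a sum of 171 to 198 CPM to 2363 to 2572 CPM, and stood at 114 to 183 CPM with Pinhead and 3620 to 3773 CPM with both.

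Trunk and tail mesoderm, where aldh1a2 and cyp26a1 are known to be expressed, rose with Pinhead. Of 30 tested copies 24 rose and none fell with Pinhead, beside 6.75% and 3.92% of all genes (median 5.98, or 5.59 at bounds). The sum went from 41.5 to 63.7 CPM in control to 1006 to 1259 CPM, with 13.5 to 13.9 CPM with Chordin and 38.3 to 124 CPM with both. All 36 copies had counts with Pinhead, while t.L, vegt.S, msgn1.L and 10 others were at 0 with Chordin. In control 8 copies were at 0. Of these, fgf4.L, fgf4.S, mespa.L, mespa.S, mespb.L and msgn1.S were at 0 with Chordin too. In the Pinhead libraries, where this list was highest, aldh1a2 was not called higher than in control and cyp26a1 was highest. In the Chordin libraries, where it was lowest, aldh1a2.L was highest, while aldh1a2.S was not called different there from explants with both. Other lists moved too. The sum of 15 notochord copies, which include the expressed chrd, was 5.97 to 6.76 CPM in control, 816 to 839 CPM with Chordin, 98.3 to 149 CPM with Pinhead and 882 to 1101 CPM with both. Most of it with Chordin and with both was chrd.S itself, at means of 805 and 863 CPM. Of the 15 copies 6 rose and 1 fell with Chordin (median 0.07), beside 31.7% and 32% of all genes. With both against control 14 rose and 0 fell, beside 33.3% and 32.1%. Endoderm markers summed to 150 to 152 CPM in control, 528 to 535 CPM with Chordin, 85.2 to 112 CPM with Pinhead and 474 to 475 CPM with both. Most of this sum was a2m.S, with group means of 117, 527, 86.8 and 456 CPM in the same order. Of 10 tested endoderm copies 3 rose and 5 fell with Chordin (median -0.39), beside 31.7% and 32% of all genes. Blood and endothelium markers had 1.51 to 2.30 CPM in control, 30.8 to 34.5 CPM with Chordin, 4.48 to 4.75 CPM with Pinhead and 10.7 to 12.1 CPM with both. Most of the sums with Chordin and with both was etv2.L, at means of 31 and 7.31 CPM, a gene already listed as close to aldh1a2.L. Only 2 of these 12 copies passed the filter. Skeletal muscle and pronephros sums were highest with both, at 44.3 to 91.2 CPM and 6.67 to 13.5 CPM. The part of these tissues in the levels of the retinoic acid genes was not tested.

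**Figure D5:**
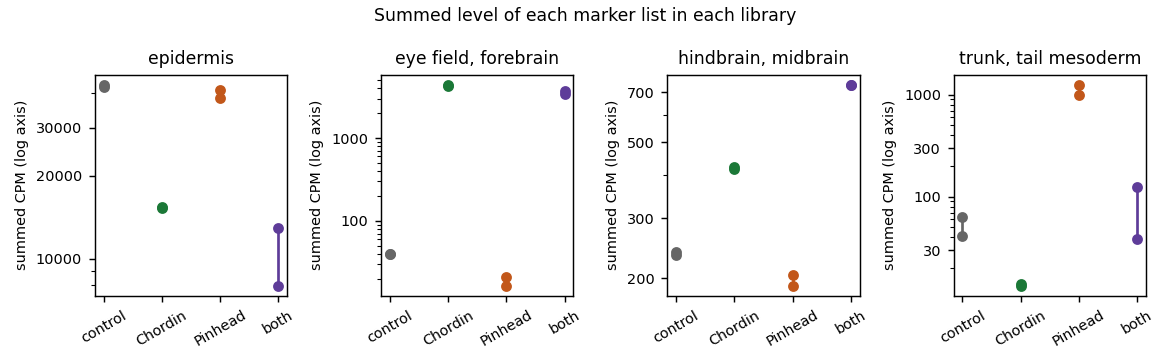
Summed level of 4 marker lists in CPM on log axes, 1 point per library, with a line joining the 2 libraries of a group. Eye field markers are high with Chordin and with both, hindbrain and midbrain markers are highest with both, and trunk and tail mesoderm markers are highest with Pinhead.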

How the data were processed

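RNA of 8 libraries was purified on RNeasy columns and sequenced as paired ends of 150 bp, per the labels' protocols. The authors deposited 1 table of counts per gene, raw whole numbers with 2 columns per library. Reads were aligned with HISAT2, per the submitters' processing notes. The sources used here do not give its version, the counting tool, strand use, genome build or annotation, and no coordinates or sequences are given. The 2 columns of a library carry its name followed by 1 or 2, per the labels. They were taken as runs of that library, which no source states, and were summed. One line of the table was not analysed here.

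Library sizes were adjusted with the TMM method of edgeR 4.0.16 (R 4.3.3), and low counts were filtered with filterByExpr (minimum 10 counts, 15 in total). A quasi-likelihood model of the 4 groups was fitted to all 8 libraries and all 23130 genes, with 4 residual degrees of freedom. Its 7 comparisons were each tested two-sided, with Benjamini-Hochberg adjustment over all genes. Changes between copies were tested with limma 3.58.1 on the log2 CPM (prior count 2) of the long minus the short copy. This test was added after the data were seen. Where a group has no counts, 3 counts in that group give the bound of a fold, and where it has 1 to 3 the ratio is given with a 95% interval. Both cover counting error only. Code was tested on simulated data.

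The alternatives were RLE size factors, DESeq2 1.42.0, no count filter, the compared groups alone, each run column alone, summed copies, and leaving out each library. Named genes were all copies of the 4 symbols, called genes of the receptor list, and up to 4 genes per other list and comparison with the smallest adjusted p. The 3 genes most alike to each copy, with a mean of at least 5 CPM and not themselves copies of the 4 symbols, were named too. Of all these named genes only some are printed. Genes next to a member, aldh1a1, aldh1a3 and the rarg-like genes came in addition. Genes and lists were chosen with earlier results of these data known. Gene order and names of neighbours are from RefSeq. Figures were drawn with matplotlib 3.10.9.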

Additional observations from a re-analysis of the deposited data

Results flagged for a closer look

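In 5 of the 8 gene copies the change with Chordin differed according to whether Pinhead was present, by the test of the interaction itself in edgeR. Over all tested genes 5.72% had a negative and 5.24% a positive interaction called, shares that move with single libraries as given below. The log2 interaction was -1.44 for aldh1a2.L, -3.18 for cyp26a1.S, -6.63 for cyp26c1.S and -5.36 for crabp2.L, where the level with both was below the product of the single fold changes, and 2.26 for crabp2.S, where it was above. On the log2 scale the copies of crabp2 thus had interactions of opposite sign, although each copy was highest in CPM with both proteins. Means with Chordin, Pinhead and both were 446, 115 and 941 CPM for crabp2.L, and 8.82, 16.7 and 267 CPM for crabp2.S. The cyp26c1.S value rests on 4 control counts, and that copy passed the count filter through the other groups. The aldh1a2.L call was lost without any 1 of libraries 1, 3, 4, 5 and 6.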

How the results depend on the processing

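Of 831 alternative values for the 56 fold changes of the gene copies, 797 kept their direction and their side of the threshold, 13 lost the call, 9 gained one and 12 changed sign. Of the 12, 4 came from summing the copies, which gives both copies of a gene 1 value by construction: the interaction was -0.66 for aldh1a2.S, -3.66 for crabp2.S and -5.50 for cyp26c1.L, and Pinhead against Chordin was -1.77 for crabp2.S. The other 8 were not called before or after. Using the second run column alone, Pinhead against control was 0.033 for aldh1a2.L, Chordin against control was -0.054 for cyp26a1.L, and the interaction was -0.077 for aldh1a2.S and -2.12 for cyp26c1.L, which was -0.018 with DESeq2 and from -0.050 to 0.20 on leaving out 1 library. On leaving out 1 library, Pinhead against control was -0.65 to 0.26 for aldh1a2.L, positive without library 2, and both against Chordin -0.078 to 0.14 for cyp26c1.S, negative without library 4. Copies called numbered 7 to 8 for Chordin, 5 for Pinhead and 8 for both against control, and 4 to 6 for the interaction. Of 180 values for the 20 copy differences, 166 kept side and direction, 10 lost the call, 1 gained it and 3 uncalled ones changed sign: aldh1a2 with Pinhead (-0.20 without library 1, up to 0.59 without others), cyp26a1 in Pinhead against Chordin (-0.025 without library 5, up to 0.33) and cyp26c1 with both (-0.042 without library 2, up to 0.74). Over all genes, leaving out 1 library moved the positive interaction calls to between 254 and 2169 and the negative ones to between 273 and 2805, both against Chordin as low as 472 higher and to between 174 and 2179 lower, and lower calls with Pinhead to between 89 and 1911. Without the count filter, which tests more genes, 2338 interactions were positive and 2483 genes higher with both against Chordin. No paired analysis was possible because the library numbers run from 1 to 8 and no 2 groups share one. With 2 libraries per group the spread is estimated over all 4 groups, and a group left with 1 library is assumed to vary like the others. Depth limits cyp26c1 in control, and so its copy difference against control, and it limits cyp26c1.L with Pinhead.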
